A study of Mus musculus with 20 samples.

Results

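The genes described here are 10 mouse genes of splicing and chromatin biology in myelodysplasia, chosen by name from the annotated symbols of the expression table. Ezh2, Ints3, Casp8 and Bcor are known from other studies as transcripts whose splicing changes with mutant SRSF2, and Tet2, Dnmt3a, Asxl1, Stag2, Idh1 and Idh2 are genes that recur as mutated in human myelodysplasia. All 10 were found among the 37748 entries of the table, and all 10 passed the filter on low values that left 10890 genes for testing. Paired-end RNA sequencing measured expression in bone marrow CFU-E, the committed red cell progenitors, from 4 groups of 5 mice. The first group, P95H PHZ, was of the genotype Mx1-Cre Srsf2 P95H/+ and received phenylhydrazine (PHZ), a compound that lyses red cells, and the second, P95H PBS, was of the same genotype and received phosphate-buffered saline (PBS). The third, Mx1-Cre PHZ, and the fourth, Mx1-Cre PBS, carried Mx1-Cre without the mutant allele and received the same 2 agents. PHZ was given under the skin at 30 mg/kg, once on day 0 and once more on day 1, and on day 4 live cells negative for lineage markers were sorted that were high in c-Kit, with CD105 on their surface and without Sca-1, CD41, CD16/32 or CD150. All 4 groups carried the Mx1-Cre transgene, whose promoter is driven by interferon and is active well beyond the red cell lineage. The P95H allele was heterozygous and was not confined to CFU-E by this driver. The induction of Cre and the age and sex of the mice are not stated. The library names give a separate animal number to each sample, so the p-values measure the spread between these mice.

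SRSF2 is a serine and arginine-rich protein that binds exonic RNA at CCNG and GGNG motifs (N is any base) and promotes inclusion of the exon. The P95H change is known to favour CCNG over GGNG, and in human cells it raises inclusion of an EZH2 exon that carries a premature stop, so that the transcript is broken down by nonsense-mediated decay. The other 6 genes encode enzymes and chromatin proteins: DNA methylation is written by DNMT3A and removed stepwise by TET2, which needs the 2-oxoglutarate made by the isocitrate dehydrogenases, while ASXL1 works with the deubiquitinase BAP1 and STAG2 is part of the cohesin ring.

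The annotation of mouse Ezh2 (GENCODE vM21, build GRCm38) is shown first because the 4 splicing targets are read here only as sums over each gene, and the sequence shows which kind of exon such a sum would not separate. Of 15 annotated Ezh2 transcripts, 6 were protein-coding and 4 were marked for nonsense-mediated decay. An exon of 82 bases on the minus strand of chromosome 6, from 47546749 to 47546830, was present in 3 of these 4 decay transcripts and overlapped no exon of a protein-coding Ezh2 transcript. It held 18 coding bases and then a stop codon, and it held 1 CCNG match, at base 36 of the exon, and 0 GGNG matches. The first stretch below is chr6:47546810-47546830, bases 1 to 21 of the exon, with the stop codon in capitals, and the second is chr6:47546784-47546803, bases 28 to 47, with the CCNG match in capitals. Both are printed 5′ to 3′ on the transcript strand.
Ezh2 exon start to stop codon: ccactcctacctaggaacTAA
Ezh2 exon around its CCNG match: atatattgCCTGttggattt
Among 648 internal exons of the same length in coding transcripts of the tested genes, 74.8% held at least 1 CCNG and 61.9% at least 1 GGNG on the transcript strand, so a CCNG match is common at this length and 38.1% held no GGNG. A second exon that overlapped no exon of a protein-coding Ezh2 transcript, of 270 bases (chr6:47561669-47561938), was present in 1 of the 4 decay transcripts. It held 33 coding bases and then a stop codon, with 8 CCNG and 2 GGNG matches. Whether either exon is the counterpart of the human EZH2 exon was not tested.

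In the coding sequences of the 10 genes, CCNG and GGNG matches were counted on the transcript strand with overlaps allowed, in the longest complete coding transcript of each gene. Over the 10006 tested genes with such a transcript, the median was 22.2 CCNG and 19.6 GGNG matches per kb. Bcor, Tet2 and Idh2 had the highest ratios of CCNG to GGNG among the 10 genes, at 1.60, 1.55 and 1.43. Casp8, Asxl1 and Ints3 lay closer to the median ratio of 1.12, at 1.21, 1.21 and 1.17. Idh1, Dnmt3a, Ezh2 and Stag2 lay below it, at 0.941, 0.811, 0.784 and 0.718. Of the 4 splicing targets, Ezh2 was thus the 1 below the median. Besides Ezh2, Dnmt3a had 2 decay transcripts among 18 and Idh2 had 2 among 7, and none was annotated for the other 7 genes. These counts describe letters in the annotation, not binding.

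Values are a normalised expression signal of the form of TPM (transcripts scaled to a common library total), and such values are per transcript length, so levels can be set side by side between genes. The library sums ran from 924763 to 1085047, and between 10364 and 10755 entries reached a value of 1 in a library. Read counts are not in the files, and library depth is unknown apart from a minimum that the labels state. All 14 erythroid progenitor markers passed the filter, with summed levels of 4735 to 5683 in P95H PHZ, 5277 to 6737 in P95H PBS, 5708 to 7136 in Mx1-Cre PHZ and 6662 to 7406 in Mx1-Cre PBS. Car1 alone averaged 2395, 2944, 3624 and 4009 in these groups and so made up a large part of each sum. It was the 1 marker of the 14 called between the genotypes, as lower in P95H after PHZ and averaged over treatments. For PHZ against PBS, 2 of the 14 were called higher and 6 lower in P95H, and 2 higher and 4 lower in Mx1-Cre. Of all tested genes, 30.2% and 31.9% were called in these 2 contrasts. Summed levels of 18 granulocyte and monocyte markers were 161 to 604 in P95H PHZ, 571 to 2498 in P95H PBS, 153 to 1089 in Mx1-Cre PHZ and 460 to 966 in Mx1-Cre PBS. Megakaryocyte markers summed to 14.1 to 20.5 in the PHZ libraries and 27.2 to 36.5 in the PBS libraries, and lymphoid, mast cell and macrophage markers to at most 12.5, 1.98 and 4.74 in any library. Stem and early progenitor markers summed to at most 14.1 in any library. Of these 10 markers 1 passed the filter, and it was called higher after PHZ in P95H and not called in Mx1-Cre. Xist, which is expressed from the inactive X chromosome, was at 99.1 to 174 in 10 libraries and at most 0.594 in the other 10, with 3 high libraries in P95H PHZ, 2 in P95H PBS, 2 in Mx1-Cre PHZ and 3 in Mx1-Cre PBS. Because these are bulk samples, fewer cells of a type and less RNA per cell cannot be told apart.

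All 10 genes were expressed in every library, over a wide range of levels. Ezh2 was the most abundant at 166 ± 8.82 (SD, n = 20 libraries), higher than 90.9% of tested genes, and Tet2 the least at 3.83 ± 0.652, higher than 18.3%. Between them came Stag2 (86.3 ± 8.93), Idh2 (78.2 ± 8.08), Asxl1 (47.8 ± 4.28), Ints3 (46.5 ± 4.01), Bcor (31.7 ± 3.31), Casp8 (26.3 ± 2.60), Dnmt3a (13.1 ± 1.23) and Idh1 (8.97 ± 2.92). Some neighbours in this order were not separated from each other library by library. Stag2 exceeded Idh2 in 13 of 20 libraries and Asxl1 exceeded Ints3 in 8, while Bcor exceeded Casp8 in 18 and Dnmt3a exceeded Idh1 in 18. Each other gene exceeded the next in all 20 libraries. Spread between mice of a group also differed between the genes: for Ezh2 the within-group SD of the log2 values was 0.0546, and 0.799% of tested genes had a lower one, while for Idh1 it was 0.315, and 94.1% of tested genes had a lower one.

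Paralogs set these levels in context. Ezh1, the second catalytic subunit that can replace EZH2 in Polycomb repressive complex 2, averaged 8.65 ± 1.17 (SD, n = 20), and Ezh2 was 19.2 times as high. Dnmt1, the maintenance methyltransferase, averaged 184 ± 12.8 and Dnmt3b 8.87 ± 0.976, and Dnmt3a lay between them in every library. Tet3 averaged 16.9 ± 2.11 and exceeded Tet2 in 20 of 20 libraries, while Tet1 averaged 1.32 ± 0.235. Asxl1 exceeded Asxl2 (26.9 ± 4.79) and Stag2 exceeded Stag1 (34.8 ± 2.02) in all 20, as Bcor did Bcorl1 (9.47 ± 1.45). Idh2, the mitochondrial NADP-dependent enzyme, was 8.72 times as high as the cytosolic Idh1, and the 3 subunit genes of the NAD-dependent mitochondrial enzyme were higher than both, with Idh3a at 224 ± 11.2, Idh3b at 186 ± 7.11 and Idh3g at 198 ± 15.0. Dnmt3l averaged 0.0193 and did not pass the filter, and Asxl3 was listed at 0 in every library.

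**Figure D1:**
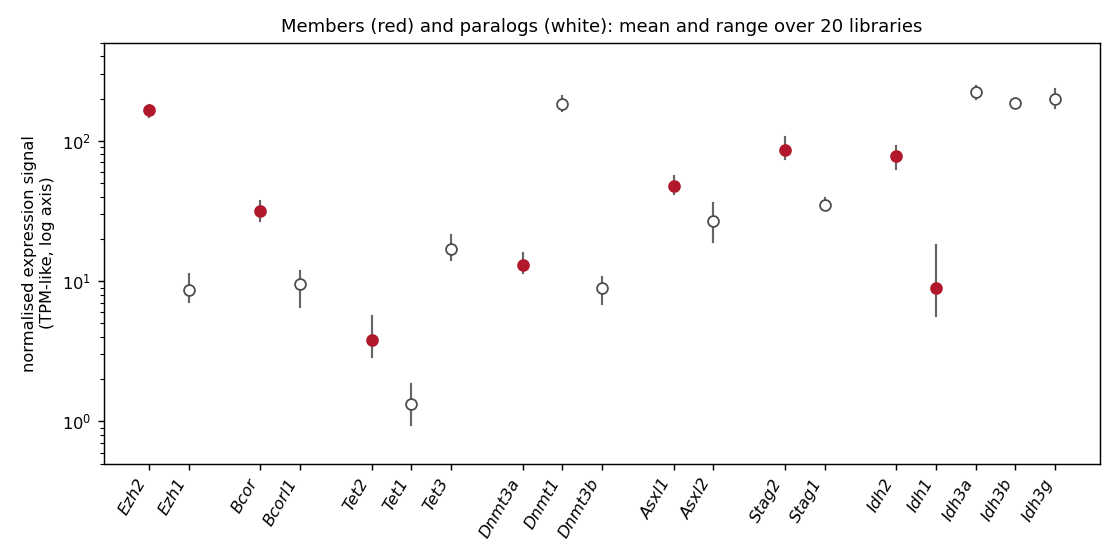
Normalised expression signal (TPM-like, log axis) of 8 of the 10 genes and of their paralogs that passed the filter; points are means over 20 libraries, lines run from the lowest to the highest library, red marks the genes described and white their paralogs. Ezh2, Asxl1, Bcor and Stag2 lie above their paralogs, Tet2 lies below Tet3, and Dnmt3a lies below Dnmt1.

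The first comparison asked whether the P95H genotype altered the 4 splicing targets, and no change in their gene-level signal was called. Across all tested genes, 1.48% were called between P95H and Mx1-Cre under PBS, 5.47% after PHZ and 10.5% when the genotype difference was averaged over both treatments. A call is an adjusted p under 0.05 in limma, with Benjamini-Hochberg adjustment over all 10890 genes. Ezh2, Ints3, Casp8 and Bcor had 0 calls among the 4 of them in each of these 3 contrasts. At unadjusted p under 0.05, limma gave 1 of these 12 values, for Bcor under PBS. Of all 10890 tested genes, 1539 were below that threshold under PBS, 2341 after PHZ and 2859 averaged over treatments.

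Ezh2 (ENSMUSG00000029687, chromosome 6, 47530139 to 47595341, minus strand) encodes the histone H3 lysine methyltransferase of Polycomb repressive complex 2. Its values were 163, 147, 162, 149 and 166 in P95H PHZ and 177, 165, 169, 163 and 171 in P95H PBS. In Mx1-Cre PHZ they were 166, 160.2, 156, 161 and 168, and in Mx1-Cre PBS 167, 176, 176, 181 and 174. The genotypes overlapped under both treatments, and the PHZ libraries lay toward the lower end of each genotype. Averaged over treatments the genotype difference was -0.05 on the log2 scale (95% interval -0.11 to 0.02, limma adjusted p = 0.354), which as a fold is 0.926 to 1.01. The difference of PHZ from PBS was -0.10 in P95H (SE 0.0437, limma adjusted p = 0.0810) and -0.11 in Mx1-Cre (SE 0.0437, adjusted p = 0.0663), with overlap in both. These PHZ differences missed the threshold, but the first passed it without P95H PHZ replicate 5 (limma adjusted p = 0.0481) and the second passed it under TMM factors (adjusted p = 0.0325) and quantile normalization (adjusted p = 0.0130). With libraries rescaled to a common sum the P95H difference was 0.0076 (adjusted p = 0.913) and the Mx1-Cre difference -0.06 (adjusted p = 0.346, limma), and with a covariate of granulocyte and monocyte markers the P95H difference was -0.05.

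Ints3 (ENSMUSG00000027933, chromosome 3, 90391388 to 90433622, minus strand) encodes a subunit of Integrator, the complex that cleaves small nuclear RNAs and paused transcripts. It stood at 51.5, 48.6, 48.4, 47.5 and 47.0 in P95H PHZ and at 43.8, 48.7, 50.2, 37.2 and 44.8 in P95H PBS. The Mx1-Cre mice had 52.9, 50.0, 49.6, 47.8 and 45.2 after PHZ and 45.2, 42.0, 46.0, 38.3 and 46.1 after PBS. P95H and Mx1-Cre libraries overlapped under each treatment, and P95H PBS replicate 4 and Mx1-Cre PBS replicate 4 were the lowest of their groups. The averaged genotype difference was 0.01 (95% interval -0.09 to 0.12), and the PHZ difference was 0.12 in P95H (limma adjusted p = 0.209) and 0.17 in Mx1-Cre (SE 0.0692, adjusted p = 0.0634). The P95H value was 0.23 and called with libraries rescaled to a common sum (limma adjusted p = 0.0467), and -0.02 with the granulocyte and monocyte covariate (adjusted p = 0.937). The Mx1-Cre value passed the threshold in 6 of 33 alternatives, which were a fit of the compared groups, the replicate block (adjusted p = 0.0370), Xist as a covariate (adjusted p = 0.00951), and fits without P95H PBS replicate 4 (limma adjusted p = 0.0274), without P95H PBS replicates 4 and 5, or with Mx1-Cre PHZ replicate 5 left out (adjusted p = 0.0396). With the granulocyte and monocyte covariate it was 0.10 (adjusted p = 0.351).

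Casp8 (ENSMUSG00000026029, chromosome 1, 58795374 to 58847503, plus strand) encodes the initiator caspase of death receptor signalling, which also restrains necroptosis. Its values were 25.3, 21.6, 24.3, 25.6 and 24.0 in P95H PHZ, and 23.7, 28.8, 29.2, 24.6 and 25.9 in P95H PBS. In Mx1-Cre PHZ they were 27.6, 24.9, 23.6, 26.9 and 26.2, and in Mx1-Cre PBS 28.0, 29.2, 33.2, 26.6 and 26.1. Group means were lower in P95H under both treatments, with libraries of the genotypes overlapping, and the averaged difference was -0.10 (95% interval -0.21 to 0.003, limma adjusted p = 0.204). PHZ against PBS gave -0.12 in P95H (adjusted p = 0.203) and -0.14 in Mx1-Cre (adjusted p = 0.146, limma), and no alternative called Casp8 in any contrast.

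Bcor (ENSMUSG00000040363, chromosome X, 12036740 to 12160355, minus strand) encodes the BCL6 corepressor, a core part of a variant Polycomb repressive complex 1. It was at 36.5, 34.8, 31.7, 27.2 and 32.2 in P95H PHZ and at 27.0, 27.4, 29.2, 31.0 and 28.0 in P95H PBS. The Mx1-Cre values were 35.9, 28.7, 37.5, 34.8 and 31.2 after PHZ and 33.9, 32.6, 34.7, 28.7 and 31.0 after PBS. P95H PHZ replicate 4 was the lowest of its group and fell inside the P95H PBS range, while the other 4 P95H PHZ libraries lay above all 5 P95H PBS libraries. Under PBS the genotype difference was -0.17 (95% interval -0.33 to -0.01, limma adjusted p = 0.336) and averaged over treatments -0.11 (95% interval -0.22 to 0.01, adjusted p = 0.218). PHZ against PBS in P95H gave 0.18 (SE 0.0781, limma adjusted p = 0.0920), and this value was called without P95H PHZ replicate 4 (adjusted p = 0.0216) and with libraries rescaled to a common sum (adjusted p = 0.0159). Bcor is X-linked and the groups mix libraries with high and low Xist, and with Xist as a covariate the PHZ value in P95H was 0.18.

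**Figure D2:**
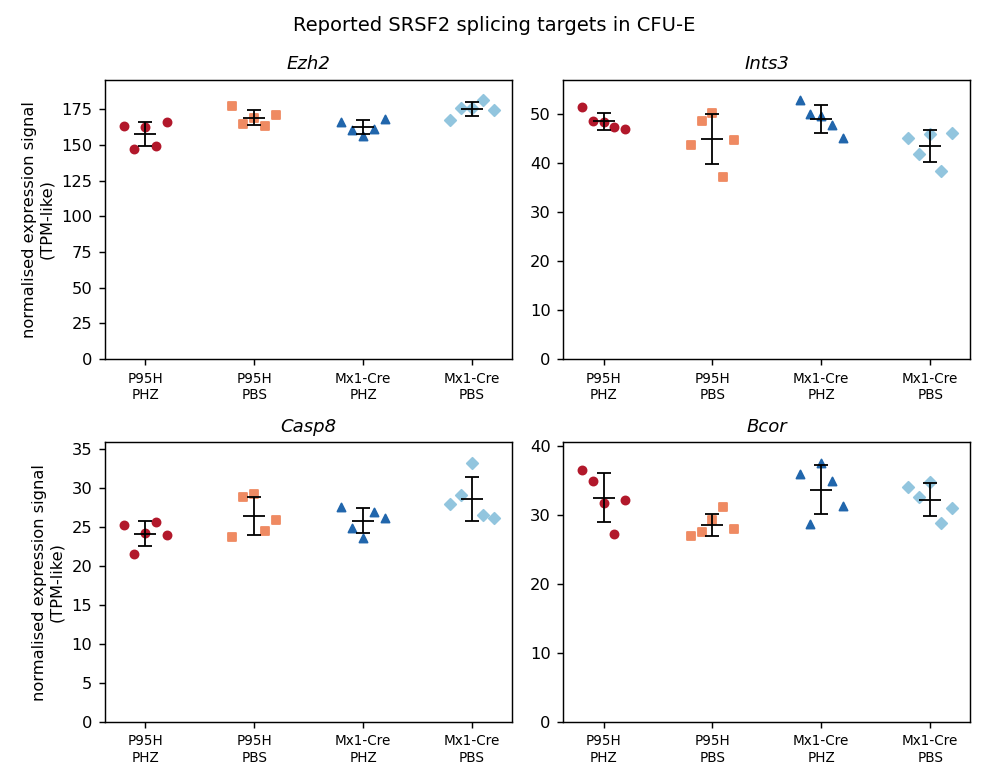
Normalised expression signal (TPM-like, axes from 0) of the 4 splicing targets in each of 20 libraries; points are libraries, the black bar is the group mean and the whiskers 1 SD (n = 5). Ezh2 stays between 147 and 181 in all 4 groups, and P95H and Mx1-Cre libraries overlap in every panel under each treatment.

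The widest of the 4 averaged intervals, that of Bcor, ran as a fold from 0.857 to 1.00. Changes in exon use within a constant gene total are not measured by a value per gene.

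The mutated gene itself, Srsf2, was called lower in P95H after PHZ and averaged over treatments. After PHZ it was at 586 ± 20.2 in P95H and 685 ± 35.6 in Mx1-Cre (SD, n = 5 each). The log2 fold change was -0.22 (SE 0.0547, limma adjusted p = 0.0188). This call was lost with rescaled libraries, and also when Mx1-Cre PHZ replicate 5 was left out (limma adjusted p = 0.0515). The difference was -0.13 under PBS (adjusted p = 0.288) and -0.18 averaged over treatments (adjusted p = 0.00530, limma). The interaction was -0.10 (adjusted p = 0.798, limma), so a difference between treatments was not shown. The gene-level signal of Srsf2 does not check the genotype, since the mutant allele is expressed from the same gene.

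The second comparison asked how the 10 genes answered PHZ in each genotype. PHZ changed a large part of the transcriptome, with 30.2% of tested genes called in P95H and 31.9% in Mx1-Cre, and 17.6% and 22.4% of genes without overlap between the groups. Against this background 2 of the 10 genes were called in P95H, Stag2 as higher and Idh2 as lower, and 2 in Mx1-Cre, Idh1 as higher and Asxl1 as lower. In each genotype 1 of the 10, Idh2 in P95H and Idh1 in Mx1-Cre, had groups that did not overlap. The median log2 fold change of the 10 genes was 0.0061 in P95H and -0.08 in Mx1-Cre, against -0.02 and -0.0015 over all tested genes. These shares are below the background share in both genotypes, and nothing particular to the 10 genes is read from them.

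Idh2 (ENSMUSG00000030541, chromosome 7, 80094846 to 80115392, minus strand) makes 2-oxoglutarate and NADPH in mitochondria, and neomorphic human mutants of it make 2-hydroxyglutarate. Its values were 74.6, 64.9, 63.2, 74.0 and 63.9 in P95H PHZ, against 79.5, 76.3, 82.1, 81.1 and 82.9 in P95H PBS. All 5 P95H PHZ libraries lay below all 5 P95H PBS libraries, with replicates 1 and 4 the highest of the PHZ group. The log2 fold change was -0.24 (SE 0.0625, limma adjusted p = 0.00592), a fold of 0.847 (95% interval 0.774 to 0.927). In Mx1-Cre the values were 77.4, 74.2, 80.4, 73.1 and 90.7 after PHZ, against 88.7, 84.3, 82.4, 78.7 and 91.8 after PBS. These groups overlapped, with replicate 5 high in both, and the difference was -0.11 (SE 0.0625, limma adjusted p = 0.206), which passed the threshold under quantile normalization (adjusted p = 0.0145) and when Mx1-Cre PHZ replicate 5 was left out (adjusted p = 0.0489). The PHZ effects of the genotypes differed by -0.13 (95% interval -0.32 to 0.05, adjusted p = 0.798). Granulocyte and monocyte markers had a median log2 fold change after PHZ of -1.85 in P95H and -0.91 in Mx1-Cre. Of 17 tested markers, 17 were called lower in P95H and 1 in Mx1-Cre, and the interaction called 0 of these markers. With their mean as a covariate the Idh2 difference in P95H was -0.15 (adjusted p = 0.315), and with libraries rescaled to a common sum it was -0.13 (adjusted p = 0.109), both in limma; every other alternative, including each library left out, kept the call.

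Idh2 was also the 1 member of 10 called between the genotypes. Of all tested genes, 5.47% were called after PHZ and 10.5% averaged over treatments. Nothing particular to the 10 genes is read from this count. The median log2 fold change of all tested genes was -0.05 after PHZ and -0.04 averaged, and -0.0018 and -0.0011 with TMM factors. After PHZ the P95H libraries, listed above, had a mean Idh2 value of 68.1 ± 5.67 and the Mx1-Cre libraries of 79.2 ± 7.04 (SD, n = 5 each). Their ranges overlapped, since P95H PHZ replicates 1 and 4 reached above the lowest Mx1-Cre PHZ library. The difference was -0.21 (SE 0.0625, limma adjusted p = 0.0483). Averaged over treatments it was -0.15 (95% interval -0.24 to -0.06, adjusted p = 0.0348), and under PBS alone -0.08 (adjusted p = 0.592, limma). The call after PHZ was lost in 23 of 33 alternatives, including the removal of P95H PHZ replicate 2, 3 or 5, of any P95H PBS library, of Mx1-Cre PHZ replicate 1, 3 or 5 or of Mx1-Cre PBS replicate 1, 2 or 3 (limma adjusted p from 0.0508 to 0.125), and under TMM factors it was -0.16 (adjusted p = 0.180). It was lost as well with the replicate block (adjusted p = 0.0502), quantile normalization, rescaled libraries, a pseudocount of 5, no filter, a fit of the compared groups, no trend or robust moderation, and without P95H PBS replicates 4 and 5 (adjusted p up to 0.260, limma). The averaged call was lost without P95H PHZ replicate 2, 3 or 5, P95H PBS replicate 2, Mx1-Cre PHZ replicate 3 or 5 or Mx1-Cre PBS replicate 1 or 5 (adjusted p from 0.0558 to 0.0667), without P95H PBS replicates 4 and 5 (adjusted p = 0.0591), and under TMM factors, quantile normalization and rescaling (adjusted p up to 0.155). The value stayed below 0 in all 33 alternatives of both contrasts.

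Idh1 (ENSMUSG00000025950, chromosome 1, 65158616 to 65186500, minus strand), the cytosolic and peroxisomal counterpart of Idh2, was called as higher after PHZ in Mx1-Cre. In Mx1-Cre mice it was at 9.08, 9.66, 13.6, 11.9 and 10.7 after PHZ, against 8.58, 5.64, 7.42, 5.88 and 8.49 after PBS. Every PHZ library lay above every PBS library, with replicate 3 the highest. The log2 fold change was 0.55 (SE 0.183, limma adjusted p = 0.0254), a fold of 1.47 in value + 1 (95% interval 1.13 to 1.91). The call was lost without Mx1-Cre PHZ replicate 3 (adjusted p = 0.0727) or 4 (adjusted p = 0.0560), or without Mx1-Cre PBS replicate 2 (adjusted p = 0.0649) or 4 (adjusted p = 0.0713, limma). In P95H it was at 6.35, 7.72, 9.90, 8.90 and 18.0 after PHZ, against 6.54, 8.51, 7.82, 7.70 and 6.91 after PBS. Replicate 5 of P95H PHZ stood at 18.0, far above the other 4, which overlapped the PBS libraries. The difference was 0.32 (SE 0.183, limma adjusted p = 0.197), and 0.11 without that library (adjusted p = 0.579). The PHZ effects of the genotypes differed by -0.24 (95% interval -0.77 to 0.30, adjusted p = 0.832), so a difference between genotypes was not shown.

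The balance of the pair followed from both genes. The ratio of Idh2 to Idh1 within a library was 3.55 to 11.8 in P95H PHZ (median 8.31), against 8.97 to 12.2 in P95H PBS (median 10.5). In the controls it was 5.90 to 8.53 in Mx1-Cre PHZ (median 7.68), against 10.3 to 15.0 in Mx1-Cre PBS (median 11.1). The ranges did not overlap in Mx1-Cre and overlapped in P95H. These ratios restate values tested above and carry no test of their own.

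Stag2 (ENSMUSG00000025862, chromosome X, 42149317 to 42277185, plus strand) encodes STAG2, which takes the same place in the cohesin ring as STAG1. Its values were 90.7, 81.1, 104, 81.3 and 107 in P95H PHZ, against 75.2, 84.9, 85.3, 76.3 and 74.1 in P95H PBS. Replicates 3 and 5 of P95H PHZ were high, while replicates 2 and 4 lay within the PBS range. The difference was 0.22 (SE 0.0771, limma adjusted p = 0.0358), a fold of 1.16 (95% interval 1.04 to 1.30). In Mx1-Cre the values were 91.4, 84.4, 78.8, 93.7 and 76.7 after PHZ, against 87.1, 87.8, 91.6, 93.3 and 81.5 after PBS. Those groups overlapped, with a difference of -0.06 (adjusted p = 0.617). The interaction was 0.28 (95% interval 0.05 to 0.50), with the lowest unadjusted p of the 10 genes at 0.0195 and an adjusted p of 0.798 in limma. The call in P95H was lost in 12 of 33 alternatives. It was lost without P95H PHZ replicate 1, 3 or 5 or P95H PBS replicate 1, 4 or 5 (adjusted p from 0.0503 to 0.109), with the granulocyte and monocyte covariate (0.22, adjusted p = 0.260), and with the replicate block (adjusted p = 0.0545). Quantile normalization, no filter, a fit of the compared groups and the removal of P95H PBS replicates 4 and 5 lost it too (adjusted p from 0.0584 to 0.204), and with rescaled libraries it was 0.33 (adjusted p = 0.00745, limma). With Xist as a covariate, which bears on this X-linked gene, the value was 0.21 (limma adjusted p = 0.0494).

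Asxl1 (ENSMUSG00000042548, chromosome 2, 153345829 to 153404007, plus strand) encodes a Polycomb-group protein that activates the histone H2A deubiquitinase BAP1. In Mx1-Cre mice its values were 51.4, 43.8, 46.8, 47.0 and 42.0 after PHZ, against 55.1, 47.9, 54.5, 56.3 and 47.8 after PBS. Most PHZ libraries lay below the PBS libraries, with replicate 1 inside their range. The difference was -0.18 (SE 0.0673, limma adjusted p = 0.0498). In P95H the values were 46.5, 45.9, 47.4, 41.7 and 47.5 after PHZ, against 42.1, 48.6, 43.6, 52.1 and 48.8 after PBS. These overlapped, with a difference of -0.03 (adjusted p = 0.730), and the interaction was 0.14 (95% interval -0.06 to 0.34, adjusted p = 0.798, limma). The Mx1-Cre call was lost in 21 of 33 alternatives, among them the removal of P95H PHZ replicate 1, 2, 3 or 5, P95H PBS replicate 2, 3 or 5, Mx1-Cre PHZ replicate 2, 3, 4 or 5 or Mx1-Cre PBS replicate 1, 3 or 4 (adjusted p from 0.0503 to 0.132). It was also lost with the replicate block (adjusted p = 0.0677) and with rescaled libraries (-0.13, adjusted p = 0.200), no filter, a fit of the compared groups, no trend or robust moderation, and the granulocyte and monocyte or the Xist covariate (adjusted p from 0.0557 to 0.109 in these 5, limma).

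**Figure D3:**
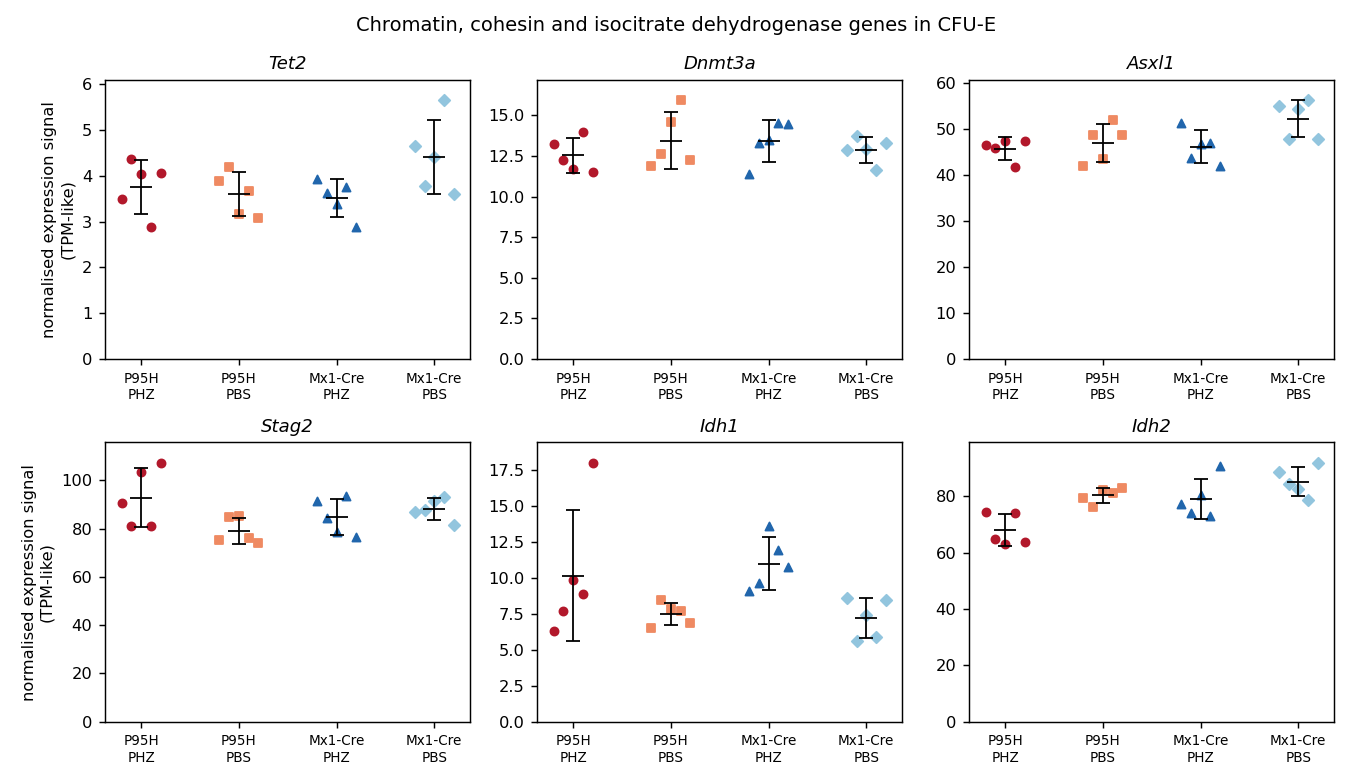
Normalised expression signal (TPM-like, axes from 0) of Tet2, Dnmt3a, Asxl1, Stag2, Idh1 and Idh2 in each of 20 libraries; points are libraries, the black bar is the group mean and the whiskers 1 SD (n = 5). The 5 P95H PHZ libraries of Idh2 lie below all P95H PBS libraries, and 1 P95H PHZ library of Idh1 stands at 18.0.

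Neither gene of the DNA methylation cycle was called. Tet2 (ENSMUSG00000040943, chromosome 3, 133463679 to 133545139, minus strand), which oxidises 5-methylcytosine, was at 3.50, 4.37, 4.03, 2.87 and 4.05 in P95H PHZ and 3.88, 4.20, 3.17, 3.68 and 3.08 in P95H PBS. It was at 3.93, 3.63, 3.37, 3.76 and 2.89 in Mx1-Cre PHZ and 4.64, 3.77, 4.41, 5.64 and 3.61 in Mx1-Cre PBS. Mx1-Cre PBS replicate 4 was the highest of all 20 libraries, and the groups overlapped in every pair. PHZ against PBS gave 0.05 in P95H (adjusted p = 0.777) and -0.25 in Mx1-Cre (SE 0.109, limma adjusted p = 0.0791), and the Mx1-Cre value was called without Mx1-Cre PBS replicate 5 (adjusted p = 0.0411) and with the granulocyte and monocyte covariate (adjusted p = 0.0496). Its interaction, 0.30 (95% interval -0.02 to 0.62, adjusted p = 0.798), was the largest in size of the 10 genes and was not called.

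Dnmt3a (ENSMUSG00000020661, chromosome 12, 3806007 to 3914443, plus strand), a de novo DNA methyltransferase, was at 13.2, 12.3, 11.7, 14.0 and 11.5 in P95H PHZ and 11.9, 12.6, 14.6, 15.9 and 12.2 in P95H PBS. In Mx1-Cre PHZ it was at 11.4, 13.3, 13.5, 14.5 and 14.5, and in Mx1-Cre PBS at 12.9, 13.7, 12.9, 11.6 and 13.3. All 4 groups covered nearly the same range. PHZ against PBS gave -0.09 in P95H (95% interval -0.26 to 0.08) and 0.05 in Mx1-Cre (95% interval -0.12 to 0.22), the averaged genotype difference was -0.02 (95% interval -0.14 to 0.10), and Dnmt3a was called in none of the 6 contrasts and in none of the alternatives.

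Between the genotypes, 0 of the 10 genes were called under PBS, where the lowest unadjusted p-values were those of Asxl1 (log2 fold change -0.15, SE 0.0673, adjusted p = 0.312), Bcor and Tet2 (log2 fold change -0.23, SE 0.109, adjusted p = 0.344, limma). Groups without overlap were 0 of 10 under PBS and 0 of 10 after PHZ, against 3.67% and 6.95% of all tested genes. The median of the 10 genes was -0.10 under PBS and -0.05 after PHZ, against -0.03 and -0.05 over all tested genes. The test of the interaction called 0% of all tested genes and 0 of the 10, with 577 genes at unadjusted p under 0.05 and a lowest adjusted p of 0.798 in limma. A PHZ effect called in 1 genotype and not in the other was therefore not shown to differ between them for any of the 10 genes.

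**Figure D4:**
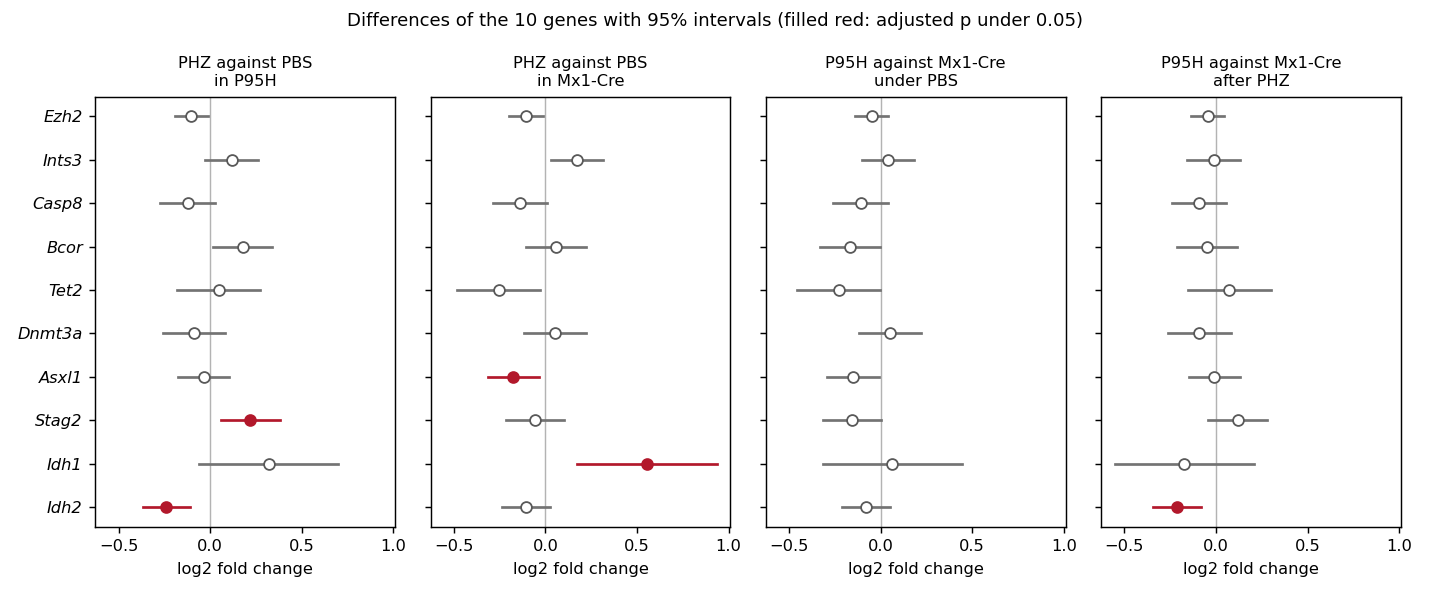
Log2 fold changes of the 10 genes in 4 contrasts, each with PHZ or P95H as the numerator; points are estimates, lines are 95% intervals before adjustment, and filled red marks an adjusted p under 0.05 in limma. Ezh2, Casp8, Asxl1 and Idh2 lie left of 0 in all 4 panels, and the interval of Idh1 is the widest in each.

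Genes that work with the members were described from 9 lists. The list counts stand beside 30.2% of all tested genes called after PHZ in P95H and 31.9% in Mx1-Cre. No list was tested against these shares. Rescaling the libraries to a common sum shifted the balance of calls after PHZ in P95H toward higher for all tested genes, to 2670 higher and 1084 lower against 1371 and 1923, so counts of the lists are also given on that scale where they differ in balance. Among 10 other tested genes of Polycomb repressive complex 2, 0 were called after PHZ in P95H (1, as higher, with rescaled libraries). In Mx1-Cre 1 was called, Ezh1, which fell (-0.28, SE 0.0874, limma adjusted p = 0.0170). That call was lost without Mx1-Cre PBS replicate 4 (adjusted p = 0.0597). The Integrator list, with 16 tested genes of subunits and of partners of INTS3, had 4 higher and 1 lower in P95H and 4 higher in Mx1-Cre. With rescaled libraries 7 were higher in P95H and 6 in Mx1-Cre, with 0 lower in both. Nabp2, which encodes a single-stranded DNA binding partner of INTS3, rose in both (log2 fold change 0.33, SE 0.0724, adjusted p = 0.00161 in P95H, and 0.42, SE 0.0724, adjusted p = 1.88e-04 in Mx1-Cre, limma), as did Ints1 (0.19 and 0.16) and Ints2 (0.28 and 0.26), beside Ints3 values of 0.12 and 0.17 that were not called.

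In the death receptor and caspase list around Casp8, the called genes were nearly all lower after PHZ. Of 18 tested genes, 7 fell and 0 rose after PHZ in P95H, and 7 fell and 1 rose in Mx1-Cre. With rescaled libraries 7 fell and 2 rose in P95H. Of all tested genes, before rescaling, 1923 fell and 1371 rose in P95H, and 1618 fell and 1856 rose in Mx1-Cre. Mlkl, the effector of necroptosis, was at 4.28 ± 0.506 in P95H PHZ and 8.63 ± 1.76 in P95H PBS, and at 3.82 ± 0.709 in Mx1-Cre PHZ and 7.74 ± 0.829 in Mx1-Cre PBS (SD, n = 5 each). Its log2 fold changes were -0.85 (SE 0.116, limma adjusted p = 1.13e-05) and -0.87 (SE 0.116, adjusted p = 1.13e-05). Diablo, which relieves inhibition of caspases, fell by 0.43 and 0.44 on the log2 scale in P95H and Mx1-Cre, and Casp6, an executioner caspase, by 0.49 and 0.55. These 3 were called in all 33 alternatives in both genotypes. Casp8 itself was not called, at -0.12 and -0.14. The list's median was -0.12 in P95H and -0.16 in Mx1-Cre, against -0.02 and -0.0015 over all tested genes.

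Around Bcor, 2 of 15 tested genes of variant Polycomb complexes rose and 2 fell in P95H, and 2 rose and 1 fell in Mx1-Cre, with 0 lower in P95H after rescaling. Pcgf3, a RING-finger subunit, rose in both (0.46, adjusted p = 0.00534 in P95H, and 0.45, adjusted p = 0.00621 in Mx1-Cre, limma). Of 12 tested genes of DNA methylation and demethylation, 1 was called in each genotype: Tdg, the glycosylase that excises oxidised methylcytosine, rose by 0.27 in P95H (SE 0.0785, adjusted p = 0.0124) and by 0.36 in Mx1-Cre (SE 0.0785, adjusted p = 0.00164). Around Asxl1, 1 of 10 tested genes rose in P95H and 2 in Mx1-Cre. Foxk2, a forkhead factor that recruits BAP1, was the gene called in both, at 0.25 (SE 0.0752, adjusted p = 0.0136) and 0.42 (SE 0.0752, adjusted p = 2.33e-04), and Hcfc1 was called in Mx1-Cre (0.21, adjusted p = 0.0243), a call lost without Mx1-Cre PHZ replicate 1, 2 or 3 or Mx1-Cre PBS replicate 4 or 5 (adjusted p up to 0.0883).

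Among 17 tested cohesin genes, 3 rose and 3 fell in P95H and 2 rose and 2 fell in Mx1-Cre, against 7 and 2 in P95H with rescaled libraries. Hdac8, the deacetylase that recycles SMC3, fell in both (-0.45, SE 0.0922, adjusted p = 8.64e-04 and -0.37, SE 0.0922, adjusted p = 0.00477, limma), and Pttg1, the securin that holds back separase, also fell (-0.35 and -0.32). Esco2, which acetylates SMC3 in S phase, rose (0.44, adjusted p = 0.00249 in P95H, and 0.29, adjusted p = 0.0363 in Mx1-Cre), and the Mx1-Cre call was lost without Mx1-Cre PHZ replicate 1, 3 or 4 or Mx1-Cre PBS replicate 1, 4 or 5 (adjusted p up to 0.102).

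Around the isocitrate dehydrogenases, 7 of 24 tested genes fell and 0 rose in P95H after PHZ, while 3 rose and 2 fell in Mx1-Cre. With rescaled libraries the balance in P95H turned to 4 higher and 2 lower, and in Mx1-Cre 4 were higher and 0 lower. Mdh1, the cytosolic malate dehydrogenase, was at 118 ± 7.02 in P95H PHZ and 144 ± 5.56 in P95H PBS (SD, n = 5 each; log2 fold change -0.29, SE 0.0569, adjusted p = 4.97e-04, limma). Sdhc, a subunit of succinate dehydrogenase, fell by 0.27 (adjusted p = 6.01e-04) and Dlst, of the 2-oxoglutarate dehydrogenase complex, by 0.20 on the log2 scale (adjusted p = 0.00237) in P95H, of which the Dlst call was lost with rescaled libraries (-0.09, adjusted p = 0.143). In Mx1-Cre, the aspartate aminotransferases Got2 (0.20, adjusted p = 0.00304) and Got1 (0.47, adjusted p = 0.00447) rose, and Mdh1 fell (-0.18, adjusted p = 0.0172), a call lost without Mx1-Cre PHZ replicate 2 or 4 (adjusted p up to 0.0540) and with rescaled libraries (adjusted p = 0.0705). The interaction of 0 of the 24 genes was called, so the counts were not shown to differ between genotypes.

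Of 25 tested other genes mutated in myelodysplasia, 2 rose and 4 fell in P95H and 5 rose and 3 fell in Mx1-Cre, against 7 higher and 2 lower of 24 in P95H with rescaled libraries. Prpf8, a core spliceosome protein, rose in both (0.42, SE 0.0684, adjusted p = 9.26e-05 in P95H, and 0.37, SE 0.0684, adjusted p = 3.58e-04 in Mx1-Cre, limma), and Gata2, a transcription factor of early progenitors, fell in both (-0.82, SE 0.153, adjusted p = 3.89e-04 and -0.85, SE 0.153, adjusted p = 2.96e-04). Over the 9 lists, 37 genes were called after PHZ in P95H and 36 in Mx1-Cre. Of all tested genes, 30.2% and 31.9% were called, and nothing particular to the lists is read from their counts. With a covariate for the mean level of granulocyte and monocyte markers, 27 of the 37 and 13 of the 36 calls were lost. Calls over all tested genes in P95H fell with it too, as given below. The covariate itself followed treatment in P95H, where 17 of 17 tested markers were called lower, so a lost call does not separate them. The part of these cells in the results was not tested. Without at least 1 single library, 9 of the 37 and 11 of the 36 calls were lost, and with rescaled libraries 10 and 2.

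Between the genotypes, 1.48% of all tested genes were called under PBS, 5.47% after PHZ and 10.5% averaged over treatments. Lower in P95H were 476 of the 596 calls after PHZ and 858 of the 1148 averaged calls. With TMM factors these were 191 of 343 and 419 of 834. Of the 9 lists, 0 genes were called under PBS and 5 after PHZ, all lower in P95H. Among them were Ints13 of Integrator, Suclg1, which encodes a subunit of succinyl-CoA ligase, the helicase gene Ddx41, and Srsf2. Each of these 5 calls was lost without at least 1 single library and with rescaled libraries. Averaged over treatments, 11 were called, with Suclg2 higher in P95H and 10 lower, among them Ints13 (-0.22, adjusted p = 0.00362) and Usp7 (-0.16, adjusted p = 0.0203). With rescaled libraries 8 of these 11 calls were lost, that of Usp7 among them, and 2 of the 11 were kept in every alternative.

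For the 4 members with a call, the genes of all those tested whose pattern over the 20 libraries was most like theirs were found by the root mean square (RMS) difference of log2 values, each centred on its own mean. For Idh1 these were Hmgcs1 (RMS difference 0.157) and Acat2 (0.174), both of which encode enzymes of early cholesterol synthesis, against an RMS of 0.362 for Idh1 around its own mean. For Idh2 they were Hsd17b4 (0.0561), of peroxisomal fatty acid oxidation, and Cenpx (0.0607), of the centromere, against 0.147. For Stag2 they were Avl9 (0.0672) and Mier1 (0.0723), against 0.140, and for Asxl1 R3hdm2 (0.0580) and Asap1 (0.0716), against 0.122.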

How the data were processed

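CFU-E from 20 mice, 5 in each of 4 groups, were profiled by RNA sequencing. The deposited data are 1 table, for 37748 entries, of an expression signal that the authors normalised. Each library's values equal whole multiples of 0.01 times 1 factor per library (0.940 to 1.10, all values within a tolerance of 0.01 of a step), the form of rounded TPM that was rescaled; the origin of these factors is not stated. The submitters' processing notes name the builds GRCm38, mm10, GRCh37 and hg19 and the tools RSEM 1.2.4, Bowtie, TopHat2 2.0.8b and TopHat, without saying what each was used for. Symbols and coordinates came from GENCODE vM21 (GRCm38), which named 35986 entries. No library duplicated another.

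Values were analysed as log2(value + 1), a scale on which changes of low genes come out too small. All log2 fold changes and folds given are of value + 1, not of the values themselves. A gene was kept where 5 or more libraries reached 1. Group means over all 20 libraries were fitted in limma 3.58.1 (R 4.3.3) with trended, robust moderation, in 6 two-sided contrasts, Benjamini-Hochberg adjusted over the 10890 genes at a threshold of 0.05. The 10 genes, 9 lists of related genes and 7 marker lists were chosen with earlier results of these data known. Named list genes are up to 3 with the smallest p in a contrast with a call, and genes outside this rule, of small counts, were picked with their values in view. The 33 alternatives comprised TMM factors (trimmed mean of M values, computed on the deposited signal), quantile normalization, libraries rescaled to a common sum, pseudocounts of 0.1 and 5, a filter at 5 or none, fits limited to the groups compared, no trend or robust moderation, a replicate block, covariates of granulocyte and monocyte markers or Xist, leaving out P95H PBS replicates 4 and 5, and leaving out each library. The fit was tested on simulated data with 200 changed genes. Of log2 changes of 0.25 it called 28% for PHZ in P95H, 32% for genotype under PBS and 67% for the averaged genotype difference. Of log2 changes of 0.5 it called 88.5%, 88% and 98% in the same order. A value not called therefore does not show that a gene was unchanged. Splicing and protein were not analysed here, and 1 gene of the lists is counted but not reported here by name. Figures were drawn with matplotlib 3.10.9 in Python 3.11.15.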

Additional observations from a re-analysis of the deposited data

Results flagged for a closer look

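Of 40 groups of 5 values (10 genes in 4 groups), 1 held a library that stood apart from the other 4. Asxl1 was at 41.7 in P95H PHZ replicate 4, while the nearest of the other libraries of that group was at 45.9. The gap was 0.719 of the group's whole range, against a critical value of 0.710 for 5 samples. Chance alone gives about 1 such value in 20 groups.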

How the results depend on the processing

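Over 33 alternatives, the 10 genes gave values in 6 contrasts, of which 1822 kept their direction and call, 74 lost a call, 16 gained one and 62 changed sign with no call on either side; no called value of the 10 genes changed sign. Calls lost and gained by a gene are described with it above. Numbers of genes called moved as follows. P95H against Mx1-Cre after PHZ called 596 genes (120 higher, 476 lower), against 343 with TMM factors (152 higher, 191 lower), 292 with quantile normalization (129 higher, 163 lower), 265 with rescaled libraries (142 higher, 123 lower), 345 in a fit of the compared groups and 319 to 697 with single libraries left out, lowest without Mx1-Cre PHZ replicate 3 (319) and P95H PHZ replicate 3 (331). Under PBS 161 were called (39 higher, 122 lower), against 78 in the compared groups, 97 without P95H PBS replicates 4 and 5, and 90 to 180 with single libraries left out, with 90, 92 and 93 without P95H PBS replicate 5 and Mx1-Cre PBS replicates 1 and 3. TMM factors split the calls under PBS as 51 higher and 73 lower, and quantile normalization as 52 and 80. Averaged over treatments 1148 were called (290 higher, 858 lower), against 755 with rescaled libraries (358 higher, 397 lower), 415 higher and 419 lower with TMM factors, 394 and 406 with quantile normalization, 750 and 805 with no filter and 133 and 774 with a filter at 5. PHZ against PBS in P95H called 3294 (1371 higher, 1923 lower), against 1007 with the granulocyte and monocyte covariate and 2089 without P95H PBS replicates 4 and 5; rescaled libraries gave 2670 higher and 1084 lower, and moved the median of all genes by 0.10 to 0.08. In Mx1-Cre 1856 were higher and 1618 lower, against 2231 and 1213 with rescaled libraries. The interaction called 0 genes, and 1 with no filter. The cause of these shifts was not tested. Csf3r, of the list of other mutated genes, fell by 0.62 after PHZ in P95H and was at 0.034 with the granulocyte and monocyte covariate, which is built from markers that include it.

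The deviations of same-numbered libraries from their group means were compared over 30 pairs of groups and numbers. Their correlations were mixed in sign, at -0.306 to 0.441 (median 0.028), with 13 above 0.1. Whether any same-numbered libraries were paired cannot be told from these values. With the replicate number as a block, 3356 genes were called for PHZ in P95H, 3579 for PHZ in Mx1-Cre, 189 for P95H under PBS, 617 after PHZ, 1241 averaged and 0 for the interaction.

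Depth is not in the files, so values of low genes such as Tet2 carry no counting interval. The 5 mice per group, 1 time point and a value per gene bound what was measured, and splicing and protein levels were outside it.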
